A study of Mus musculus with 18 samples.

Results

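Nanog, Sox2, Sall4 and Nr0b1 encode regulators of transcription in the core network of mouse pluripotent cells, and their probe sets were described over fibroblasts, embryonic stem cells and induced pluripotent stem cells (iPSCs). A probe set is a group of probes that together read 1 transcript. The members were all probe sets that carried 1 of these 4 gene symbols in the authors' list of probe sets at least 10-fold above the mean of mouse embryonic fibroblasts (MEFs) in every other array. This gave 4 probe sets, 1429388_at for Nanog, 1416967_at for Sox2, 1424152_at for Sall4 and 1417760_at for Nr0b1, out of 477 in that list and 45037 non-control probe sets on the array. Each gene thus had 1 probe set. A symbol was given for 931 probe sets (2.07%), so others of the same genes, and genes outside the lists, were not analysed here. As the list rests on the difference from MEFs, levels above MEFs are given as a description with no test, and tests were made only among mouse embryonic stem cells (mESCs) and the iPSC groups.

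RNA of 18 samples was measured, each on 1 Affymetrix mouse expression array. They comprised 3 samples of MEFs from E13.5 embryos, 3 mESC clones, and 4 iPSC clones in each of 3 groups made from such MEFs. PiggyBac plasmids carried Oct4 and EpCAM into the OE + EpEX cells, Klf4 and EpCAM into the KE + EpEX cells, and Oct4, Sox2, Klf4 and c-Myc into the OSKM cells. Doxycycline at 1.5 µg/mL induced them for 21 days. EpEX was added only in the groups named for it and is the extracellular domain of EpCAM, a membrane glycoprotein of epithelial and pluripotent cells. For every group, mESCs included, the labels give B6.Cg-Gt (ROSA) 26Sortm1, which brings the doxycycline-dependent activator (rtTA*M2) Jae/J, and B6.129S4-POU5f1tm2Jae/J, which the study used as GFP at the Oct4 locus. Transfected cells were plated with feeder cells, which are themselves fibroblasts. By their labels the MEF samples are replicates, but the series design mentions 1 primary culture, and clones of a group need not come from separate MEF cultures, so p-values measure only the spread between these samples. Sox2 was itself transfected into the OSKM cells, and whether its probe set also reads the transfected copy was not tested.

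In mouse pluripotent cells Oct4 and Sox2 bind DNA side by side on a composite element and, together with Nanog, occupy the regulatory regions of their own genes and of many other genes of the pluripotent state. Sall4, a zinc finger protein, binds Oct4 and Nanog and shares many of their targets, and Nr0b1 (Dax1), an X-linked orphan nuclear receptor, binds Oct4 and restrains its activity. Fibroblasts keep all these genes silent, and their return is a usual sign of completed reprogramming.

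The regions before the start sites of Nanog, Sox2 and Nr0b1 are shown because the network is known to act there on its own members. The sequences are the 250 bases before the start site from RefSeq (GRCm38.p6). Sall4 was matched by symbol to the gene table, on chromosome 2, bases 168748332 to 168767201, but not to the promoter table. The Nanog region is chr6:122707239-122707488, the Sox2 region chr3:34649745-34649994 and the Nr0b1 region chrX:86191525-86191774, all on the plus strand. Capitals mark a match to the composite Sox-Oct element (CATTGT, any 1 base, then ATGCAAA) in Nanog and to its Oct part ATGCAAA alone in Sox2.
Nanog: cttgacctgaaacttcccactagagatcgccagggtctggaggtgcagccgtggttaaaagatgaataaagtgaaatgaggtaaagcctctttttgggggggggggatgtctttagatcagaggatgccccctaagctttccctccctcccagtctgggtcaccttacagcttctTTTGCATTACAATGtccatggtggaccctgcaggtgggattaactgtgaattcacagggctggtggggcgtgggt
Sox2: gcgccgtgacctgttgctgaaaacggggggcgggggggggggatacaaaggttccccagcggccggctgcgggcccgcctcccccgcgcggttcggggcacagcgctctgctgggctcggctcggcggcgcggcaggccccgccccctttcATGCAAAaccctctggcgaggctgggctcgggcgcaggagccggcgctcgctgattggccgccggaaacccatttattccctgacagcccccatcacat
Nr0b1: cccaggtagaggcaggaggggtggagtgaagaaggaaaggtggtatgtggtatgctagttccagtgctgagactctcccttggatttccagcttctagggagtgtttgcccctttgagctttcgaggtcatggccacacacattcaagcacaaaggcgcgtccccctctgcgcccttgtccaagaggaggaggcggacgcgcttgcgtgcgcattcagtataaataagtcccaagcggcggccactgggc
The composite element of Nanog lay on the minus strand, from base −75 to base −62 before the start site (chromosome 6, bases 122707414 to 122707427). Its letters were chosen with the known Nanog element in view, so its rarity is no finding. It was in 2 of 32851 promoters of the table (0.00609%), which were the windows of the 2 start sites listed for Nanog. The Oct part was present on the plus strand of Sox2 from base −99 to base −93, and in 4.12% of all promoters, those of the composite element included. The search for it alone was added after seeing the data. The octamer ATGCAAAT (1.6% of promoters) and the Sox site CATTGTT (3.29%) were in none of the regions printed, on either strand, and the Nr0b1 region held none of the 4 motifs. A match is a description of letters and not of binding.

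Each deposited value was a log2 level from which the authors had subtracted the median of that probe set over the 18 arrays. A value of 0 therefore marks a probe set's own median, values may be compared between arrays and not between genes, and whether a transcript was above background is unknown. Marker lists were described as the mean log2 value of their genes with a symbol. Since symbols were given only for probe sets in lists chosen on their difference from MEFs, a gap between MEFs and the other arrays follows from that choice and is no check of the cells. The 11 core partners of the network with a symbol (of 20 listed) lay between −5.61 and −5.07 in MEFs and between −0.18 and 0.98 in the other 15 arrays. The 15 fibroblast markers with a symbol (of 21) lay between 4.66 and 6.20 in MEFs and between −0.85 and 1.35 elsewhere. MEF sample 1 differed from the other MEF samples by a root mean square of 0.86 and 0.88 log2 units over all probe sets, against 0.24 between samples 2 and 3.

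All 4 genes stood far above MEFs in each of the 15 mESC and iPSC arrays, with folds over the MEF mean from 61.8 (Nr0b1 in KE + EpEX clone 3) to 1188 (Nanog in KE + EpEX clone 4). These values chose the members and were not tested. Nanog, a homeodomain factor that holds cells in the pluripotent state, was at −9.52, −9.79 and −9.82 in the 3 MEF samples and between −0.15 and 0.50 in the others. Its mean difference of 9.84 log2 units (913-fold) was the greatest of all 45037 probe sets. Sall4 was at −7.03, −7.25 and −7.39 in MEFs, 7.26 log2 units (154-fold) below the mean of the other arrays, which was rank 32. Nr0b1 was at −6.62, −6.54 and −6.67 in MEFs, a difference of 6.62 log2 units (98.5-fold) and rank 55. These sizes depend on the scaling. Under quantile normalization, which forces all arrays to 1 distribution, the levels above MEFs were 4.19 (Nanog), 2.39 (Sox2), 2.59 (Sall4) and 2.26 (Nr0b1) log2 units, and ranks were not computed there.
Sox2, the HMG box partner of Oct4, was the member with unequal MEF samples. It was at −8.41 in MEF sample 1 and at −5.24 and −5.26 in samples 2 and 3, a range of 3.17 log2 units (9.01-fold), whereas the MEF ranges of the other members were 0.13 to 0.36. Its mean difference of 6.43 log2 units (85.9-fold, rank 67) was 8.53 against sample 1 alone, 5.36 against sample 2 and 5.38 against sample 3. The size of the Sox2 rise thus rests on which MEF sample serves as the reference. For comparison, the median of the 477 probe sets of the list was 4.63 log2 units (24.7-fold). Just inside the list's limit of 10-fold in every array was Syce2 (1429270_a_at), with a lowest fold of 10.03, and just outside it was 1452730_at, with 9.97.

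**Figure D1:**
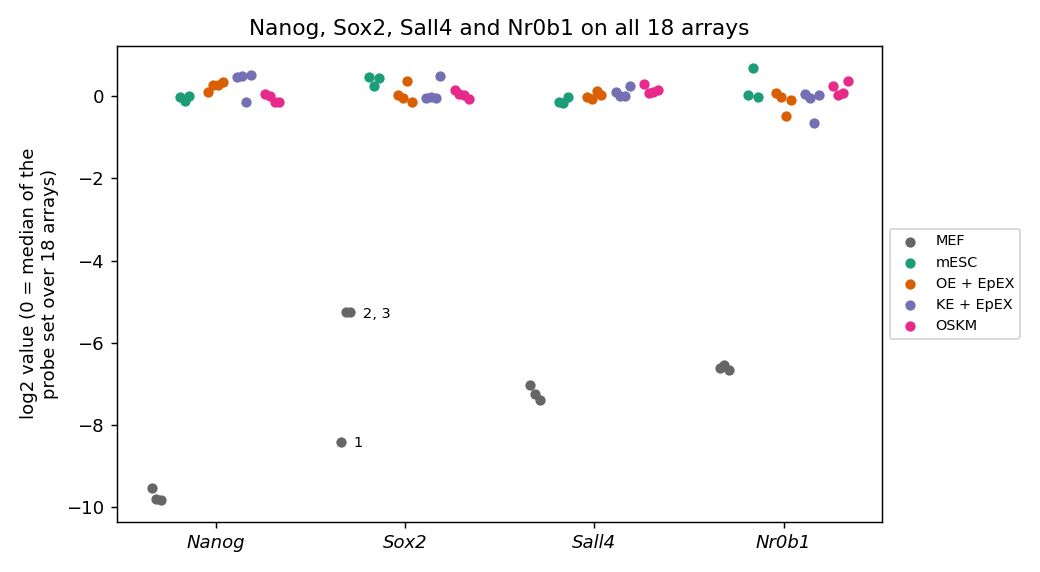
Log2 value of each member (y axis, 0 being the median of its probe set over the 18 arrays) on every array, with a point for each array coloured by group and the MEF samples of Sox2 numbered. The 15 mESC and iPSC arrays lay between −0.66 and 0.69, whereas the MEF samples lay between −9.82 and −5.24, with Sox2 in MEF sample 1 at −8.41, apart from samples 2 and 3.

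Among mESCs and the iPSC groups, group differences of the members ran from −0.38 (Nr0b1, KE + EpEX minus mESC) to 0.39 log2 units (Nanog, KE + EpEX minus OSKM), and all 24 of the 95% intervals lay between −0.81 and 0.66, that is within 1.75-fold in either direction. Intervals within 1 log2 unit of 0 were usual on these arrays, as 89.3% to 97.8% of all probe sets had one, depending on the comparison. Under quantile normalization the differences of OE + EpEX and KE + EpEX from mESCs and from OSKM were larger in absolute size for Nanog and Nr0b1. Nanog was then at 0.46 (OE + EpEX minus mESC), 0.66 (KE + EpEX minus mESC), 0.48 (OE + EpEX minus OSKM) and 0.68 (KE + EpEX minus OSKM), and Nr0b1 at −0.53, −0.56, −0.58 and −0.60 in the same order, with SEs of 0.21 to 0.35 and adjusted p of at least 0.0978 by limma.
By limma, with p-values adjusted over all 45037 probe sets by the Benjamini-Hochberg method, 1 of the 24 differences had an adjusted p under 0.05, Sall4 in OSKM against mESCs, and 7 had an unadjusted p under 0.05. In OE + EpEX against mESCs 0 of 4 members were called, beside 14.2% of all probe sets, and 1 had an unadjusted p under 0.05, beside 27.2%. In KE + EpEX against mESCs 0 of 4 were called, beside 16.7%, and 2 had an unadjusted p under 0.05, beside 27.5%. In OSKM against mESCs 1 of 4 was called, beside 17.0%, and 2 had an unadjusted p under 0.05, beside 27.9%.
Between iPSC groups fewer probe sets of any kind were called. The share was 1.23% in OE + EpEX against OSKM and 0.00222% in KE + EpEX against OSKM. These shares stand for 556 probe sets and 1, counts that ran from 5 (without OSKM clone 4) to 1425 and from 0 to 1579 when 1 array was left out, the highest in both without KE + EpEX clone 3, and were 2325 and 810 under quantile normalization. In both comparisons 0 of 4 members were called and 1, Nanog, had an unadjusted p under 0.05, beside 16.5% and 12.0% of all probe sets. In OE + EpEX against KE + EpEX 0 of 4 members and 0.0% of all probe sets were called, with 0 members and 8.27% of probe sets at an unadjusted p under 0.05 by limma. In KE + EpEX against OSKM and in OE + EpEX against KE + EpEX the groups overlapped for every member. Groups without overlap, in either direction, were found for 7.34% and 3.63% of all probe sets in these comparisons. In bulk samples such as these, fewer cells that express a gene and less RNA per cell cannot be told apart.

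**Figure D2:**
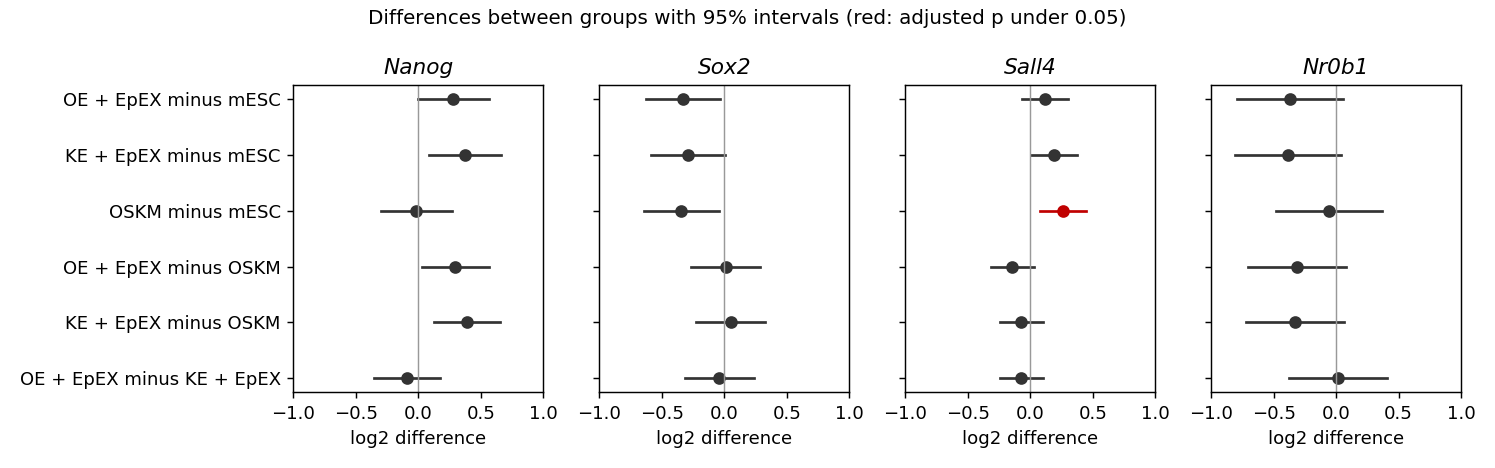
Difference of group means for each member (x axis, log2 units) in the 6 comparisons (y axis), with points for the fitted difference and bars for its 95% interval in limma on 15 arrays, red where the adjusted p was under 0.05. All bars lay within 1 log2 unit of 0, and the red bar is Sall4 in OSKM minus mESC at 0.26.

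Nanog was highest on average in KE + EpEX and OE + EpEX clones and lower in mESCs and OSKM clones. The mESC clones were at −0.016, −0.11 and −0.0068 (mean −0.046 ± 0.060 SD, n = 3). The OE + EpEX clones were at 0.086, 0.26, 0.26 and 0.33 (mean 0.23 ± 0.10 SD, n = 4), so that each was above all mESC clones. The KE + EpEX clones were at 0.46, 0.49, −0.15 and 0.50 (mean 0.33 ± 0.32 SD, n = 4).
Clones 1, 2 and 4 of KE + EpEX were thus above every array of the other groups, while clone 3 was below every mESC clone. The OSKM clones were at 0.036, 0.0068, −0.14 and −0.15 (mean −0.062 ± 0.097 SD, n = 4) and overlapped the mESCs. Nanog in OE + EpEX did not overlap mESCs, as was so for 10.1% of all probe sets in the higher direction, nor did it overlap OSKM, as was so for 6.71%.
The difference of KE + EpEX from mESCs was 0.37 log2 units (1.29-fold, SE 0.13, 95% interval 0.085 to 0.66, limma adjusted p = 0.0756) and that of OE + EpEX was 0.28 (1.21-fold, SE 0.13, interval −0.0073 to 0.57, adjusted p = 0.196). OSKM differed from mESCs by −0.016 (interval −0.30 to 0.27, adjusted p = 0.963). Against OSKM the difference was 0.39 in KE + EpEX (1.31-fold, interval 0.12 to 0.65, adjusted p = 0.224) and 0.30 in OE + EpEX (1.23-fold, interval 0.030 to 0.56, adjusted p = 0.247). Between OE + EpEX and KE + EpEX it was −0.092 (interval −0.36 to 0.17, adjusted p = 0.873). Differences of a larger absolute size were found for 6.52% of all probe sets in KE + EpEX minus OSKM, 14.4% in OE + EpEX minus OSKM, 21.2% in KE + EpEX minus mESC and 27.8% in OE + EpEX minus mESC. None of the 6 Nanog differences passed the test, those between neighbours in the order of group means included.
KE + EpEX clone 3 decided several of these calls. Without it the difference of KE + EpEX from mESCs was 0.53 (adjusted p = 0.000916) and that from OSKM was 0.55 (adjusted p = 0.00543), and the difference of OE + EpEX from mESCs, unchanged in size, had an adjusted p of 0.0336 by limma because the fitted spread was smaller.

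**Figure D3:**
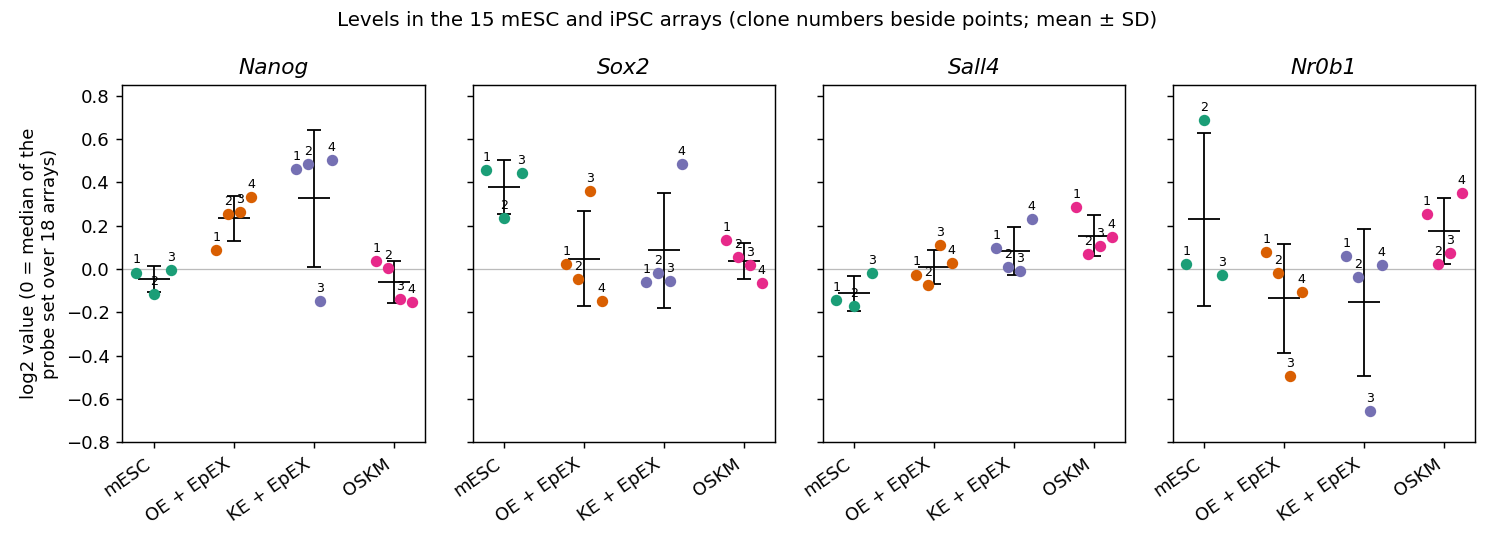
Log2 value of each member (y axis, 0 being the median of its probe set over the 18 arrays) in the 15 mESC and iPSC arrays (x axis, groups), with a numbered point for each clone, a horizontal line for the group mean and bars for the SD. Nanog in KE + EpEX clone 3 (−0.15), Sox2 in KE + EpEX clone 4 (0.48) and Nr0b1 in KE + EpEX clone 3 (−0.66) lay apart from the other clones of their group.

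Sox2 was highest on average in mESCs, and the 3 iPSC groups lay at like lower means. The mESC clones were at 0.46, 0.24 and 0.44 (mean 0.38 ± 0.12 SD, n = 3). The OE + EpEX clones were at 0.025, −0.046, 0.36 and −0.15 (mean 0.048 ± 0.22 SD, n = 4), and the KE + EpEX clones at −0.060, −0.017, −0.057 and 0.48 (mean 0.088 ± 0.27 SD, n = 4). In both of these groups 1 clone, OE + EpEX clone 3 and KE + EpEX clone 4, was within or above the range of the mESCs and the others were below all mESC clones.
The OSKM clones were at 0.13, 0.056, 0.017 and −0.066 (mean 0.036 ± 0.083 SD, n = 4), below all mESC clones, a separation that 17.3% of all probe sets showed in that direction. OSKM differed from mESCs by −0.34 log2 units (0.788-fold, SE 0.14, 95% interval −0.64 to −0.045, limma adjusted p = 0.115), OE + EpEX by −0.33 (0.795-fold, interval −0.63 to −0.033, adjusted p = 0.136) and KE + EpEX by −0.29 (0.817-fold, interval −0.59 to 0.0067, adjusted p = 0.194). The differences between iPSC groups were 0.012, 0.052 and −0.040 log2 units with intervals from −0.32 to 0.33, and the groups overlapped. None of the 6 Sox2 differences passed the test, and the order of the iPSC groups cannot be read.
Each of the 3 differences from mESCs passed under some alternatives. The adjusted p by limma was 0.0183 for KE + EpEX (difference −0.42) and 0.0399 for OSKM without KE + EpEX clone 4, 0.0375 for OE + EpEX (difference −0.43) without OE + EpEX clone 3, and 0.0192 for OSKM with only OSKM and mESC arrays in the fit. With the MEF samples in the fit, among which Sox2 varied by 3.17 log2 units, its SE rose to 0.51 and the adjusted p to between 0.788 and 0.845.

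Sall4 had the smallest fitted spread of the members (SE 0.087 against mESCs, beside 0.13 for Nanog, 0.14 for Sox2 and 0.20 for Nr0b1). The mESC clones were at −0.14, −0.17 and −0.019 (mean −0.11 ± 0.081 SD, n = 3) and the OE + EpEX clones at −0.025, −0.072, 0.11 and 0.029 (mean 0.010 ± 0.078 SD, n = 4). The KE + EpEX clones were at 0.095, 0.0096, −0.0096 and 0.23 (mean 0.082 ± 0.11 SD, n = 4) and the OSKM clones at 0.29, 0.069, 0.11 and 0.15 (mean 0.15 ± 0.095 SD, n = 4). All clones of KE + EpEX and of OSKM were above all mESC clones, a separation shown in that direction by 9.22% and 14.0% of all probe sets, while OE + EpEX overlapped the mESCs.
OSKM minus mESC was 0.26 log2 units (1.20-fold, SE 0.087, 95% interval 0.079 to 0.45, limma adjusted p = 0.0485), the one call among the members, in a comparison where 30.2% of all probe sets had a larger absolute difference. The call was just past the threshold. It held with the arrays centred on their medians (adjusted p = 0.0332) and without KE + EpEX clone 3, KE + EpEX clone 4 or OE + EpEX clone 3, and it was lost in the other 12 omissions of an array (adjusted p up to 0.143), with all 18 arrays (0.0992), with the 2 compared groups alone (0.0518), under quantile normalization (0.0712) and with the replicate number as a block (0.0912). The difference kept its direction throughout.
KE + EpEX minus mESC was 0.19 (1.14-fold, interval 0.0084 to 0.38, adjusted p = 0.160) and OE + EpEX minus mESC was 0.12 (1.09-fold, interval −0.063 to 0.31, adjusted p = 0.407). The iPSC groups differed from each other by −0.14 (OE + EpEX minus OSKM), −0.071 (KE + EpEX minus OSKM) and −0.072 (OE + EpEX minus KE + EpEX), with intervals from −0.31 to 0.10 and adjusted p from 0.398 to 0.837. No difference between neighbours in the order mESC, OE + EpEX, KE + EpEX, OSKM thus passed the test.

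Nr0b1 had the largest fitted spread. The mESC clones were at 0.025, 0.69 and −0.027 (mean 0.23 ± 0.40 SD, n = 3), so that clone 2 was above all other arrays, and this SD was larger than that of 96.8% of all probe sets in mESCs. The OE + EpEX clones were at 0.078, −0.020, −0.50 and −0.10 (mean −0.14 ± 0.25 SD, n = 4), the KE + EpEX clones at 0.059, −0.038, −0.66 and 0.020 (mean −0.15 ± 0.34 SD, n = 4), and the OSKM clones at 0.25, 0.022, 0.074 and 0.35 (mean 0.18 ± 0.15 SD, n = 4). Clone 3 was the lowest clone in both OE + EpEX and KE + EpEX and lowered their means.
KE + EpEX minus mESC was −0.38 log2 units (0.767-fold, SE 0.20, 95% interval −0.81 to 0.040, limma adjusted p = 0.236), OE + EpEX minus mESC was −0.36 (0.777-fold, interval −0.79 to 0.059, adjusted p = 0.260) and OSKM minus mESC was −0.054 (interval −0.48 to 0.37, adjusted p = 0.912). Against OSKM the differences were −0.31 in OE + EpEX (interval −0.70 to 0.081, adjusted p = 0.427) and −0.33 in KE + EpEX (interval −0.72 to 0.063, adjusted p = 0.517), and OE + EpEX minus KE + EpEX was 0.019 (interval −0.37 to 0.41, adjusted p = 0.986). Larger absolute differences were found for 9.28% of all probe sets in KE + EpEX minus OSKM, 13.2% in OE + EpEX minus OSKM, and 20.3% and 20.0% in KE + EpEX and OE + EpEX minus mESC. None passed, under any alternative tried, and all groups overlapped. Single clones changed these sizes. Without mESC clone 2 OE + EpEX differed from mESCs by −0.13, KE + EpEX by −0.15 and OSKM by 0.18, the last with its sign turned. Without OE + EpEX clone 3 the difference of OE + EpEX was −0.19 from OSKM and −0.25 from mESCs, and without KE + EpEX clone 3 that of KE + EpEX was −0.16 and −0.22.

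Across the 15 arrays the correlations between members were weak. Pearson r between members ran from −0.20 (Nanog and Nr0b1) to 0.24 (Nanog and Sall4), as a description of arrays that share groups. After subtraction of group means, r was 0.71 for Sox2 and Sall4, which were both high in KE + EpEX clone 4 and OE + EpEX clone 3, and 0.46 for Nanog and Sall4. KE + EpEX clone 3 was the lowest of its group in Nanog, Sall4 and Nr0b1, at −0.15, −0.0096 and −0.66, and within the range of clones 1 and 2 in Sox2.

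Among the 376 genes with a symbol in the higher list, those with the pattern most like each member over the 15 arrays were as follows, the likeness being Pearson r. For Nanog they were Hic2 (0.89), Ly6g6e (0.89) and Bcat1 (0.84), with r of 0.84, 0.88 and 0.80 after leaving out the 2 arrays farthest from the Nanog median. For Sox2 they were Fbxo5 (0.92), an inhibitor of the anaphase-promoting complex, Tspan13 (0.91) and Kif18a (0.90), a mitotic kinesin, with r of 0.87, 0.88 and 0.90 after the same step. For Sall4 they were Ung (0.78), the uracil-DNA glycosylase, BC052688 (0.76) and 5730507C01Rik (0.75), which fell to 0.65, 0.61 and 0.58.
For Nr0b1 they were Klf5 (0.71), Car2 (0.68) and Msh6 (0.62), and without KE + EpEX clone 3 and mESC clone 2 these were 0.35, 0.15 and 0.42, so the likeness to Nr0b1 rested on those arrays. No member was among the 3 genes most like another. Of the 3 genes picked by Pearson r, Spearman's rho picked 1 again for Nanog and for Sall4 and 0 for Sox2 and Nr0b1, and deviations from group means picked 0 for each member, so the names depend on the measure.

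A few other genes of the network differed more widely from mESCs than the 4 members did. Of the 15 probe sets of the 11 core partners, 1 was higher and 4 were lower in OE + EpEX than in mESCs, 2 were higher and 4 lower in KE + EpEX, and 1 was higher and 3 lower in OSKM (limma, adjusted p under 0.05). In the same order 14.2%, 16.7% and 17.0% of all probe sets were called in either direction. The median difference of the list was −0.16, 0.044 and −0.11 log2 units in the same order, beside −0.054, −0.022 and −0.017 over all probe sets. Each gene named below is given by its called probe set with the largest absolute difference. Any other probe sets of that gene are not shown. Pou5f1, which encodes Oct4, was lower than in mESCs by its probe set 1417945_at in all 3 iPSC groups, at −5.22 ± 0.41 (SE), −5.75 ± 0.41 and −5.52 ± 0.41 in OE + EpEX, KE + EpEX and OSKM (adjusted p at most 8.46e-07). Oct4 was among the genes transfected into the OE + EpEX and OSKM cells, all groups are labelled with the same Pou5f1 allele, and which Pou5f1 transcripts the probe set reads was not tested. Zfp42 (Rex1), a marker of undifferentiated cells, was also lower than in mESCs in these groups, at −1.78, −1.68 and −1.96. So was Nr5a2, a nuclear receptor that can act on Oct4, at −1.58, −1.45 and −2.02. Tfcp2l1, a naive state factor, was higher in OE + EpEX (0.72, adjusted p = 0.0316) and KE + EpEX (0.87, adjusted p = 0.00921), and Tbx3 was higher in OSKM (0.57, adjusted p = 0.00748).
Of the 32 probe sets of 22 downstream genes and markers (of 31 listed), 4 were higher and 3 lower in OE + EpEX, 4 higher and 1 lower in KE + EpEX, and 11 higher and 2 lower in OSKM than in mESCs. These counts stand beside the same 14.2%, 16.7% and 17.0% of all probe sets called. The list medians were 0.13, 0.072 and 0.13 log2 units, beside −0.054, −0.022 and −0.017 over all probe sets. Dnmt3b, a de novo DNA methyltransferase, rose by 1.09 in OE + EpEX and by 1.59 in OSKM by its probe set 1418351_a_at. Epcam, which was also transfected into the OE + EpEX and KE + EpEX cells, rose by 0.86 and 0.58 in these groups (1416579_a_at). Epcam was not called in either group against OSKM, and which Epcam transcripts the probe set reads was not tested. Lin28a, an RNA-binding protein that blocks let-7 maturation, fell by 0.83 in OE + EpEX and by 1.37 in KE + EpEX. Dppa3 rose by 1.42 in KE + EpEX. Jarid2 rose by 0.50 in KE + EpEX and by 0.89 in OSKM, where Dnmt3l (1.28) and Nodal (0.91) also rose. L1td1 fell by 0.49 in OE + EpEX. Between iPSC groups 0 core partners were called and 1 downstream probe set was, L1td1, at −0.60 in OE + EpEX minus OSKM (adjusted p = 0.0397). In that comparison 1.23% of all probe sets were called. Comparisons with mESCs share the same mESC clones.

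Markers of other cell types were set beside the members. The mean of the 15 fibroblast markers was −0.49, −0.68 and −0.49 in the mESC clones and between −0.31 and −0.12 in the OSKM clones. It was −0.00030, −0.18, 0.31 and 0.83 in OE + EpEX clones 1 to 4, and 1.35, 0.52, −0.79 and −0.85 in KE + EpEX clones 1 to 4. The list was therefore highest in KE + EpEX clone 1 and OE + EpEX clone 4, still far below the 4.66 to 6.20 of MEFs. Of its 20 probe sets, 2 were called higher and 0 lower in OE + EpEX than in mESCs, 1 higher and 1 lower in KE + EpEX, and 2 higher and 1 lower in OSKM, beside the 14.2%, 16.7% and 17.0% of all probe sets called in these comparisons. The list medians were 0.77, 0.66 and 0.35 log2 units above mESCs, beside −0.054, −0.022 and −0.017 over all probe sets. Col5a2 was called higher than in mESCs in every iPSC group, by 1.75 (OE + EpEX), 1.49 (KE + EpEX) and 1.46 log2 units (OSKM). The other markers called higher were Snai2, by 1.08 (OE + EpEX), and Postn, by 2.19 (OSKM). Pdgfra, a receptor for platelet-derived growth factor, was the marker called lower than in mESCs, at −1.10 in KE + EpEX and −1.74 in OSKM. Between iPSC groups 1 of the 20 was called, again Pdgfra, at 1.13 in OE + EpEX minus OSKM (adjusted p = 0.0461). The values are centred, so which of these markers were at background is unknown.
Nanog was high in both clones, 0.46 in KE + EpEX clone 1 and 0.33 in OE + EpEX clone 4, and was at 0.50 in KE + EpEX clone 4 and −0.15 in KE + EpEX clone 3, with fibroblast values of −0.85 and −0.79. Leaving out KE + EpEX clone 1 and OE + EpEX clone 4 together, an omission chosen after seeing the data, gave Nanog differences from mESCs of 0.33 (adjusted p = 0.177) and 0.25 (adjusted p = 0.337) and Sox2 differences of −0.24 and −0.27 for KE + EpEX and OE + EpEX, and the Sall4 difference of OSKM from mESCs stayed at 0.26 with an adjusted p of 0.0649. The part of fibroblasts in the members' values was not tested. Of the lists for primitive endoderm, trophoblast and primed cells only Pdgfra, Tfap2c, and Otx2 with Pou5f1 had a symbol, and of the germ layer list none, so these cell types could not be checked. Tfap2c, which pluripotent and germ cells also express, was higher by its probe set 1418147_at than in mESCs in OE + EpEX (0.68) and KE + EpEX (0.70).

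**Figure D4:**
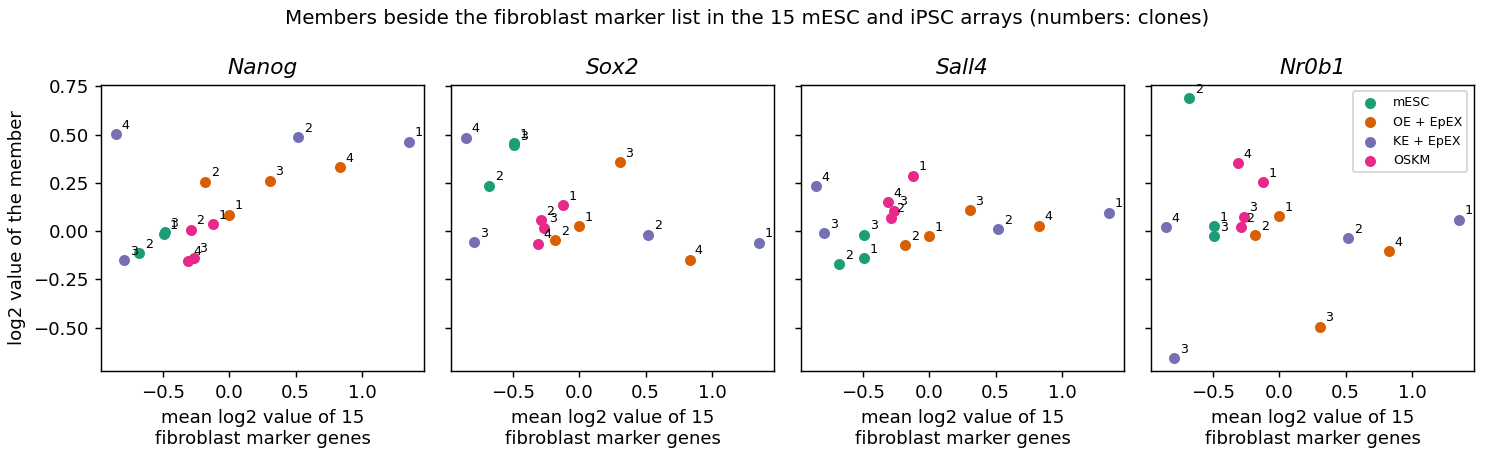
Log2 value of each member (y axis) against the mean log2 value of the 15 fibroblast marker genes (x axis) in the 15 mESC and iPSC arrays, with a numbered point for each clone. Nanog is at 0.46 to 0.50 in KE + EpEX clones 1, 2 and 4, with fibroblast values of 1.35, 0.52 and −0.85.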

How the data were processed

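For extraction and labelling the labels name Trizol and biotin and the paper's methods RNeasy and Cy3. The log2 values of 45101 probe sets that the authors deposited came from GeneSpring GX, and the median over the 18 arrays had been taken from each probe set. The submitters' processing notes name MAS5 and RMA without a role or version, and the normalization between arrays is not given in the sources used here. Such centring removes absolute levels, so no filter on dim probe sets could be applied. The authors also deposited the mean of the MEF samples, which equalled that of their values (tolerance 1e-06), and lists of 477 higher and 471 lower probe sets. Gene symbols, the other content used, were taken from these lists. Their fold columns hold the authors' comparisons and stayed out.

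The 64 control probe sets were omitted, and 0 per-sample columns went unused. Groups came from the sample labels. Limma 3.58.1 in R 4.3.3 (functions lmFit and eBayes) was fitted to the 15 mESC and iPSC arrays with a mean for each group, and p-values were adjusted over 45037 probe sets within each of 6 comparisons. The same fit was also run on simulated arrays, with results not given here. The number of arrays limits the precision. Python 3.11.15 served for other steps, with matplotlib 3.10.9 and, also for correlations, pandas 2.3.3 and numpy 2.4.6. The fit without MEFs was chosen because a MEF sample was known to stand apart, and the members and lists were chosen with earlier results of these data known. Genes named were the members, the 3 genes of the higher list with the highest Pearson r to each over 15 arrays, and up to 4 genes per list and comparison with an adjusted p under 0.05, by size of the difference. The alternatives were quantile normalization, arrays centred on their medians, all 18 arrays or only 2 groups in the fit, eBayes with trend and robust options, the methods' unpaired test, the replicate number as a block, the probe sets with the larger spread, other thresholds, each MEF sample as reference, other measures of likeness, and leaving out each array. The numbers gave no sign of pairing the samples. Deviations of same-numbered arrays correlated at −0.36 to 0.25 (median −0.0025, 21 pairs of arrays), and those of different numbers at −0.35 to 0.46 (median −0.00080, 63 pairs).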

Additional observations from a re-analysis of the deposited data

Results flagged for a closer look

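In 3 of the 12 groups of 4 clones (4 genes in 3 iPSC groups), 1 clone lay apart from the rest by Dixon's test (gap over range), where chance flags about 1 group in 20, or 0.6 of 12. Nanog in KE + EpEX clone 3 was at −0.15, against 0.46 to 0.50 in the other clones (gap over range 0.939). Nr0b1 in the same clone was at −0.66, against −0.038 to 0.059 (0.865). Sox2 in KE + EpEX clone 4 was at 0.48, against −0.060 to −0.017 (0.921). All 3 were in KE + EpEX, and groups of 3 were not tested. The share of all probe sets flagged in these groups was not computed, and the 4 genes share the same clones. The count therefore cannot be read as an excess in the members. Over all probe sets, KE + EpEX clones differed in pairs by a root mean square of up to 0.47 log2 units, against 0.43 in OE + EpEX and 0.24 in OSKM. Beside these values, the fibroblast marker mean was −0.79 in clone 3 and −0.85 in clone 4 of KE + EpEX, against 1.35 and 0.52 in clones 1 and 2, and their part in the result was not tested.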

How the results depend on the processing

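Under the alternatives that left out no single array, 219 values of the 24 member differences kept their direction and side of the threshold. Beside these, 2 turned direction, 6 gained a call and 7 lost one. Over the omissions of 1 array 330 values were kept, 12 turned, 6 gained a call and 12 lost one. Only 1 of the 24 was called in the main fit, so most kept values were differences that stayed uncalled. The direction turned for Nanog in OSKM minus mESC with centred arrays (0.0027) and for Nr0b1 in OSKM minus mESC under quantile normalization (0.043), both differences near 0. Omissions turned 12 values. These were Nanog in OSKM minus mESC (−0.050 to 0.014), Sox2 in OE + EpEX minus OSKM (−0.092 to 0.077), KE + EpEX minus OSKM (−0.080 to 0.10) and OE + EpEX minus KE + EpEX (−0.14 to 0.092), and Nr0b1 in OSKM minus mESC (−0.18 to 0.18) and OE + EpEX minus KE + EpEX (−0.15 to 0.14). In detail they were 0.0034, 0.0090 and 0.014 for Nanog without mESC 3, OSKM 3 and OSKM 4, −0.092, −0.022, −0.080, 0.092 and 0.025 for Sox2, and 0.18, −0.15, −0.053 and −0.020 for Nr0b1.

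Calls were gained for Nanog in OE + EpEX minus mESC (0.28) and minus OSKM (0.30) by the methods' t-test without adjustment, in KE + EpEX minus mESC among the more variable probe sets (0.37), and for Sox2 in OSKM minus mESC (−0.34) with the 2 groups alone and by the t-test with and without adjustment. The Sall4 call in OSKM minus mESC (0.26) was lost with all 18 arrays, 2 groups, trend and robust options (adjusted p = 0.0585), the adjusted t-test, KE + EpEX clone 1 and OE + EpEX clone 4 left out together, and quantile normalization (0.41), and Sall4 was not among the more variable probe sets. Over omissions of 1 array the Nanog differences ran from 0.25 to 0.33 (OE + EpEX minus mESC), 0.31 to 0.53 (KE + EpEX minus mESC) and 0.33 to 0.55 (KE + EpEX minus OSKM), those of Sox2 from −0.43 to −0.27, −0.42 to −0.24 and −0.41 to −0.30 (OE + EpEX, KE + EpEX and OSKM minus mESC), and that of Sall4 in OSKM minus mESC from 0.22 to 0.31. Members called numbered 0 or 1 in OE + EpEX and KE + EpEX minus mESC and in KE + EpEX minus OSKM, and 0 to 2 in OSKM minus mESC. They numbered 1 in OE + EpEX minus mESC and minus OSKM by the unadjusted t-test, 1 in KE + EpEX minus mESC with the larger spread, and in OSKM minus mESC 2 by that t-test and 0 under an adjusted p under 0.01 or a log2 limit of 1.

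With the replicate number as a block the Sall4 difference in OSKM minus mESC was 0.25 (adjusted p = 0.0912), which left 0 members called, and no other member call changed. Of the 15 arrays, 4 correlated best with an array of their own number, which gave no sign of a pairing by number. The block changed the count of all probe sets to 140 in OE + EpEX minus OSKM and 0 in KE + EpEX minus OSKM.

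Counts of all probe sets called depended more on the processing. For OE + EpEX, KE + EpEX and OSKM minus mESC the 15-array fit called 6406, 7503 and 7643, all 18 arrays 3808, 4771 and 4782, quantile normalization 2486, 3413 and 4925, and a log2 limit of 1 left 1547, 1754 and 1678. In the same order the t-test called 1873, 2014 and 8570 after adjustment and 10165, 9288 and 14027 without it, and 2 groups alone gave 5239, 4860 and 10755. OE + EpEX minus OSKM went from 556 to 2325 (quantile), 121 (18 arrays), 1827 (2 groups), 267 (trend and robust), 1373 (larger spread), 8240 (unadjusted t-test) and 44 (log2 limit of 1). KE + EpEX minus OSKM went from 1 to 810, 0, 28, 0, 57 and 4979 in the same order up to the t-test, 2 with its adjustment and 36 without that pair of clones. OE + EpEX minus KE + EpEX went from 0 to 2 (trend and robust), 2719 (unadjusted t-test) and 58 (without that pair of clones). Omissions of 1 array gave 4094 to 7520, 5114 to 9009 and 5131 to 8675 against mESCs, 5 to 1425 (OE + EpEX) and 0 to 1579 (KE + EpEX) against OSKM, the highest in both without KE + EpEX clone 3, and 0 to 149 between OE + EpEX and KE + EpEX. The causes were not tested.

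Levels above MEFs under quantile normalization, which forces all 18 arrays to 1 distribution, were 4.19 (Nanog), 2.39 (Sox2), 2.59 (Sall4) and 2.26 (Nr0b1) log2 units. MEF sample 1 alone gave 9.65 (Nanog), 8.53 (Sox2) and 7.07 (Sall4), sample 2 gave 5.36 (Sox2), and sample 3 gave 5.38 (Sox2) and 7.43 (Sall4). The 3 or 4 arrays per group set the precision, and the signal over background is unknown.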
